A study of Mus musculus with 9 samples.

Results

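Casp14, a cysteine protease of the outermost living layers of the epidermis, was measured in mouse back skin together with 8 further genes for the enzymes of cornification, namely Tgm1, Tgm3, Tgm5, Padi1, Padi2, Padi3, Asprv1 and Blmh. These 9 genes were taken by name from the deposited table of gene levels and joined to the deposited counts by gene identifier, which gave 9 of the 55401 genes in the count table. All 9 passed the filter on low counts, as did 20817 genes in all. The set was put together with the difference between the groups already known, and the genes were chosen by it, Casp14 for the smallest unadjusted p of all tested genes and the other 8 as enzymes of the same process, so the values of the 9 genes in FJDHF against Model are given as a description without a test.

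All libraries came from C57BL/6 males, 6 to 8 weeks old, whose shaved backs were painted with DNCB, a reactive small molecule that raises an eczema-like contact allergy. The sensitizing dose was 200 μL of 1% DNCB on day 1, and 100 μL of 0.5% DNCB was repeated between day 4 and day 21. Animals of the FJDHF group took the Fangji Dihuang formulation, a decoction of herbs, by mouth every day after day 7, whereas Model animals drank the same amount of water, and collection was on day 28. RNA was extracted from whole back skin, and libraries of undamaged skin were not analysed here, so a level in either group describes skin that had been painted with DNCB. The columns carry the codes MR1, MR3, MR3_4, MR4_5 and MR5, taken as the 5 FJDHF libraries, and MXL1, MXL12, MXL3_4 and MXL_3, taken as the 4 Model libraries. The sources do not explain these codes, and every direction below rests on this assignment. Neither do they say whether a code such as MR3_4 stands for 1 animal or for pooled animals, so n counts libraries.

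Cornification is the programmed death by which keratinocytes turn into the flat, cross-linked cells of the skin surface. Transglutaminases join envelope proteins to each other, and peptidylarginine deiminases convert arginine to citrulline in keratins and filaggrin, which loosens filaggrin from the keratin bundles. Proteases also act on filaggrin. The aspartic protease SASPase, encoded by Asprv1, trims its linker peptides. Caspase-14 and bleomycin hydrolase, encoded by Blmh, take part in cutting it to smaller pieces and to free amino acids that hold water. Some of the same enzymes work in the hair follicle, where PADI3 and TGM3 modify trichohyalin, a protein of the inner root sheath that hardens by this change.

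The genes lie in the GRCm38 build as follows, by the deposited positions. Casp14 (ENSMUSG00000005355) is at chr10:78711991-78718294 on the minus strand, and Asprv1 (ENSMUSG00000033508) at chr6:86628164-86629710 on the plus strand is a gene of 1 exon. Tgm3 (ENSMUSG00000027401, chr2:130012349-130050399, plus) and Tgm5 (ENSMUSG00000053675, chr2:121046111-121085841, minus) are on chromosome 2, while Tgm1 (ENSMUSG00000022218) is at chr14:55700009-55713492 on the minus strand. The deiminase genes stand side by side on chromosome 4, with Padi3 (ENSMUSG00000025328, minus) at chr4:140785365-140810648, Padi1 (ENSMUSG00000025329, minus) at chr4:140812983-140845778 and Padi2 (ENSMUSG00000028927, plus) at chr4:140906344-140952586. Blmh (ENSMUSG00000020840) is at chr11:76924809-76987379 on the plus strand. In GENCODE M21, 32.0% of the exonic bases of Padi1 are also exons of Gm13032 on the other strand, and 2.97% of those of Padi2 and 5.76% of those of Tgm1 are shared with Gm13031 and Gm49067. These 3 partners had at most 70, 17 and 2 counts in any library, against at least 123, 523 and 1510 for the enzyme genes, but how strand was handled in counting is not given in the sources used here.

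The promoters of 4 genes are shown, those of Casp14 and of its closest partner among the enzymes over the libraries, Tgm5, and those of Asprv1 and Padi3, whose levels were related to markers of the differentiated epidermis and of the inner root sheath of the hair follicle, as described below. Each sequence is from RefSeq (GRCm38.p6), reads 5′ to 3′ on the strand of the gene, and holds 250 bases before the start base and 50 from it onwards. Capitals mark matches, on either strand, to the TATA box in the form TATAAA, to the box known as CCAAT, to a motif of the KLF type in the form CACCC, and to one of the GRHL type in the form AACCNGTT. The AP-1 motif was searched as well, and so was the E-box, CANNTG, which is left in lower case.
Casp14: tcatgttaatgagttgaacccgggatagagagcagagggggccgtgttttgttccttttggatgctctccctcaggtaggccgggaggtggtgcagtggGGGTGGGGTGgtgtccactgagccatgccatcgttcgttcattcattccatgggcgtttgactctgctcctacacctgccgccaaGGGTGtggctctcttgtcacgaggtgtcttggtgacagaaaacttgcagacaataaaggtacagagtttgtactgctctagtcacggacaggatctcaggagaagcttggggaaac
Asprv1: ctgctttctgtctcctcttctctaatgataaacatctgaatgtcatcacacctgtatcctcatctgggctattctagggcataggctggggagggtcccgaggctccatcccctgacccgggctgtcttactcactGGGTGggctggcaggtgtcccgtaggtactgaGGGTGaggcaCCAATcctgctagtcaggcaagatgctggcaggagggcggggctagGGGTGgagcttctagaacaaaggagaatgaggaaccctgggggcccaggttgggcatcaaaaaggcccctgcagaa
Tgm5: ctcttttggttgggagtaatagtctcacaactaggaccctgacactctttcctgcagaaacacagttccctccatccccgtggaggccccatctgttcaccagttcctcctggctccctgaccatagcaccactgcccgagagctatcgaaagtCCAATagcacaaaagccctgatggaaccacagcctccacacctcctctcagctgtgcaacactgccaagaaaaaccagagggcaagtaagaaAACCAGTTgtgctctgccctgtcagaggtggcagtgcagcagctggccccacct
Padi3: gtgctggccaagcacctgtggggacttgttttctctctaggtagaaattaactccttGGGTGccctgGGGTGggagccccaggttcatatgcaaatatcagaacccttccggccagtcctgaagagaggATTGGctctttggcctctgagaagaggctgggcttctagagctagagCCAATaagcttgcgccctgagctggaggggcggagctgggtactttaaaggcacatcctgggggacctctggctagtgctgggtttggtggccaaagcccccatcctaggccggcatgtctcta
The windows are chr10:78718244-78718543 (minus strand), chr6:86627924-86628223 (plus strand), chr2:121085792-121086091 (minus strand) and chr4:140810599-140810898 (minus strand). Positions below are those of the first base of the match, with the start base at 0. The Casp14 window had 3 CACCC matches, at -151, -146 and -66, the first pair side by side, and no match to the other capitalised motifs. That of Asprv1 also had 3, at -114, -82 and -26, and a CCAAT match at -72. The Tgm5 window had a CCAAT match at -96 and a GRHL-type match at -4, and the Padi3 window had CCAAT at -121 and -74 and CACCC at -193 and -183. The E-box matched once in the Casp14 window, at -79, 4 times each in those of Asprv1 and Tgm5, and 2 times in that of Padi3, and none of the 4 windows held the AP-1 motif. Among 32851 mouse promoters of the same length, 72.3% held the E-box, 57.5% CACCC, 37.4% CCAAT, 13.6% TATAAA, 7.81% the AP-1 motif and 2.09% AACCNGTT. A match of this kind is a run of letters and does not show that a factor binds there.

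Depth was even, with 74648669 to 79474215 counts per library, so that 3 counts, taken as the floor, were 0.0375 to 0.0415 CPM, the count scaled to a common library size. The lowest count of any of the 9 genes in any library was 123, for Padi1 in MR5, so their values stand well above the floor. This does not hold for every other gene below, such as Tgm7, which had at most 23 counts in a library. Markers of differentiated keratinocytes (12 of 12 listed), basal keratinocytes (10 of 10) and the inner root sheath (8 of 8) passed the filter. Library MXL_3 had the lowest mean log2(CPM + 0.5) of basal (6.59) and differentiated (7.44) keratinocyte markers and the highest of dermal fibroblast (11.6) and skeletal muscle markers (10.6), while muscle markers ranged from 5.66 to 9.78 in the other 8 libraries. In whole skin, fewer cells of a type and less RNA per cell cannot be told apart.

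Levels between genes were compared per length, in FPKM, the authors' values corrected for gene length and depth, as the geometric mean over the 9 libraries. Asprv1 stood first at 391 FPKM and Casp14 second at 131 FPKM, followed by Blmh at 37.0, Padi3 at 26.2, Tgm1 at 12.9, Tgm3 at 11.4, Tgm5 at 7.21, Padi1 at 2.55 and Padi2 at 2.22 FPKM. By their mean FPKM, Asprv1 lay above 99.7% of the tested genes, Casp14 above 98.9% and Padi2 above 51.1%. The order therefore spans the proteases of the upper epidermis at the top and PADI1 and PADI2 at the bottom.

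Neighbours in this order were compared within libraries by a two-sided exact sign-flip permutation test of the log2 ratio, adjusted by the Benjamini-Hochberg method over 8 pairs. The order came from the same 9 libraries, so it fixed which pairs were compared and the sign of each mean log2 ratio. Asprv1 exceeded Casp14 in 9 of 9 libraries (log2 ratio 1.58 ± 0.62, SD, exact test, adjusted p = 0.0104), Casp14 exceeded Blmh in 9 of 9 (1.82 ± 0.71, adjusted p = 0.0104), and Padi3 exceeded Tgm1 in 9 of 9 (1.02 ± 0.58, adjusted p = 0.0104). The raw p behind these values, 0.0039, is the smallest that 9 libraries allow. Tgm5 was above Padi1 in 7 of 9 libraries (exact test, adjusted p = 0.0469). The other neighbours did not differ beyond their spread. Blmh was above Padi3 in 6 of 9 (exact test, adjusted p = 0.141), Tgm1 above Tgm3 in 6 of 9 (0.656), Tgm3 above Tgm5 in 7 of 9 (0.1) and Padi1 above Padi2 in 4 of 9 (0.777).

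**Figure D1:**
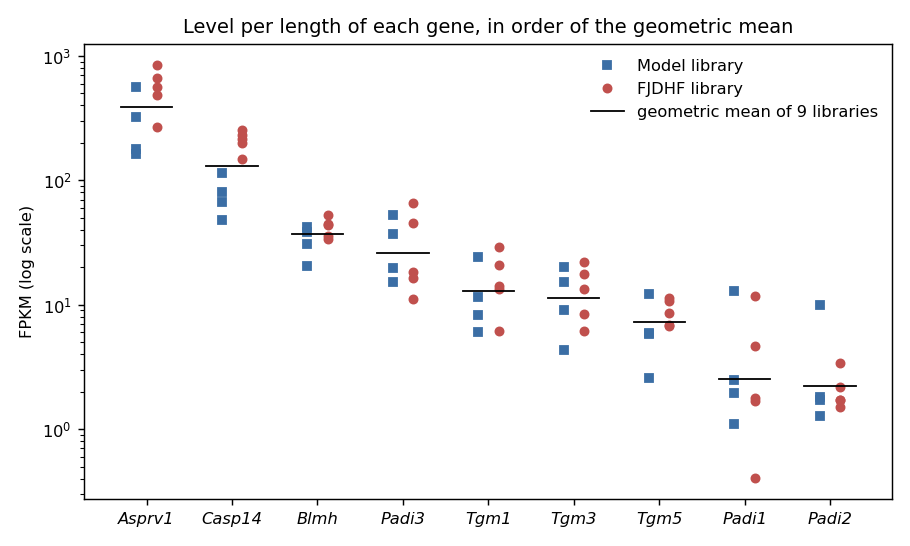
Level per length (FPKM, log axis) of the 9 genes in each of 9 libraries, squares for Model and circles for FJDHF, with a bar at the geometric mean. Asprv1 and Casp14 lie above the other 7 genes, and Padi1 spreads from 0.403 to 12.9 FPKM.

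The place of Casp14 among the caspases was clear in every library. Its lowest value, 47.7 FPKM in MXL_3, was above the highest value of any of the 9 other caspase genes tested, which was 33.2 FPKM for Casp1, the protease that activates interleukin-1β. The mean of Casp1 was 19.6 FPKM. Within the transglutaminase family the order was different, since F13a1, the catalytic subunit of coagulation factor XIII, had a mean of 57.1 FPKM and Tgm2, the widely expressed tissue transglutaminase, 16.1 FPKM, compared with means of 14.9, 12.9 and 7.87 FPKM for Tgm1, Tgm3 and Tgm5. Tgm6, Tgm4 and Tgm7 had means of 9.45, 0.285 and 0.0624 FPKM. Among the deiminases Padi4, known from neutrophils, had a mean of 1.58 FPKM against 31.2 for Padi3, and Padi6, an egg cell gene, had at most 4 counts in a library and was not tested.

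Casp14 separated the groups completely. Its levels were 587, 358, 526, 622 and 529 CPM in the FJDHF libraries MR1, MR3, MR3_4, MR4_5 and MR5, and 282, 205, 172.5 and 126 CPM in the Model libraries MXL1, MXL12, MXL3_4 and MXL_3. Every FJDHF library was above every Model library, with MR3 the lowest of the former and MXL1 the highest of the latter. The means were 524 ± 101 CPM (SD, n = 5) and 196 ± 65.6 CPM (n = 4), and the fitted log2 fold change was 1.42 ± 0.25 (SE), or 2.68-fold. Leaving out 1 library at a time moved this value between 1.26, without MXL_3, and 1.65, without MXL1.

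No gene of the 20817 differed at least 2-fold with an adjusted p below 0.05 (edgeR quasi-likelihood test with Benjamini-Hochberg adjustment), so the share called was 0% and none of the 9 enzymes was among them. At an unadjusted p under 0.05 without a fold limit there were 319 genes, or 1.53%, a smaller share than this threshold alone gives where no gene differs. DESeq2 called 2 genes after adjustment, the beta-defensin gene Defb8 and Casp14. The call of Casp14 is no separate evidence, because its choice used the same contrast. With an unadjusted p below 0.05 and at least a 2-fold difference, 1 of the 9 enzymes was higher in FJDHF, where 0.428% of tested genes were, and 0 of 9 lower, where 0.452% were. Libraries of the groups did not overlap for 1 of 9 in the upward direction (0.231% of tested genes) and for 0 of 9 in the downward direction (0.283%). The 1 gene is Casp14 in each case, which the choice of genes had fixed.

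By the fitted log2 fold change, 6 of the 9 enzymes were above 0, against 44.1% of all tested genes, and the median over the 9 was 0.32 against -0.03 over all tested genes. Leaving out 1 library at a time gave 5 to 8 of 9. Casp14 and Blmh had the smallest spread between libraries of a group, with an SD on the log2 scale of 0.39 and 0.33, close to the median of all tested genes, 0.35. That of the other 7 ran from 0.62 for Tgm5 to 1.57 for Padi1. A gene with an SD as wide as that of Padi1 gives a fold change with an SE of 0.92 here.

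**Figure D2:**
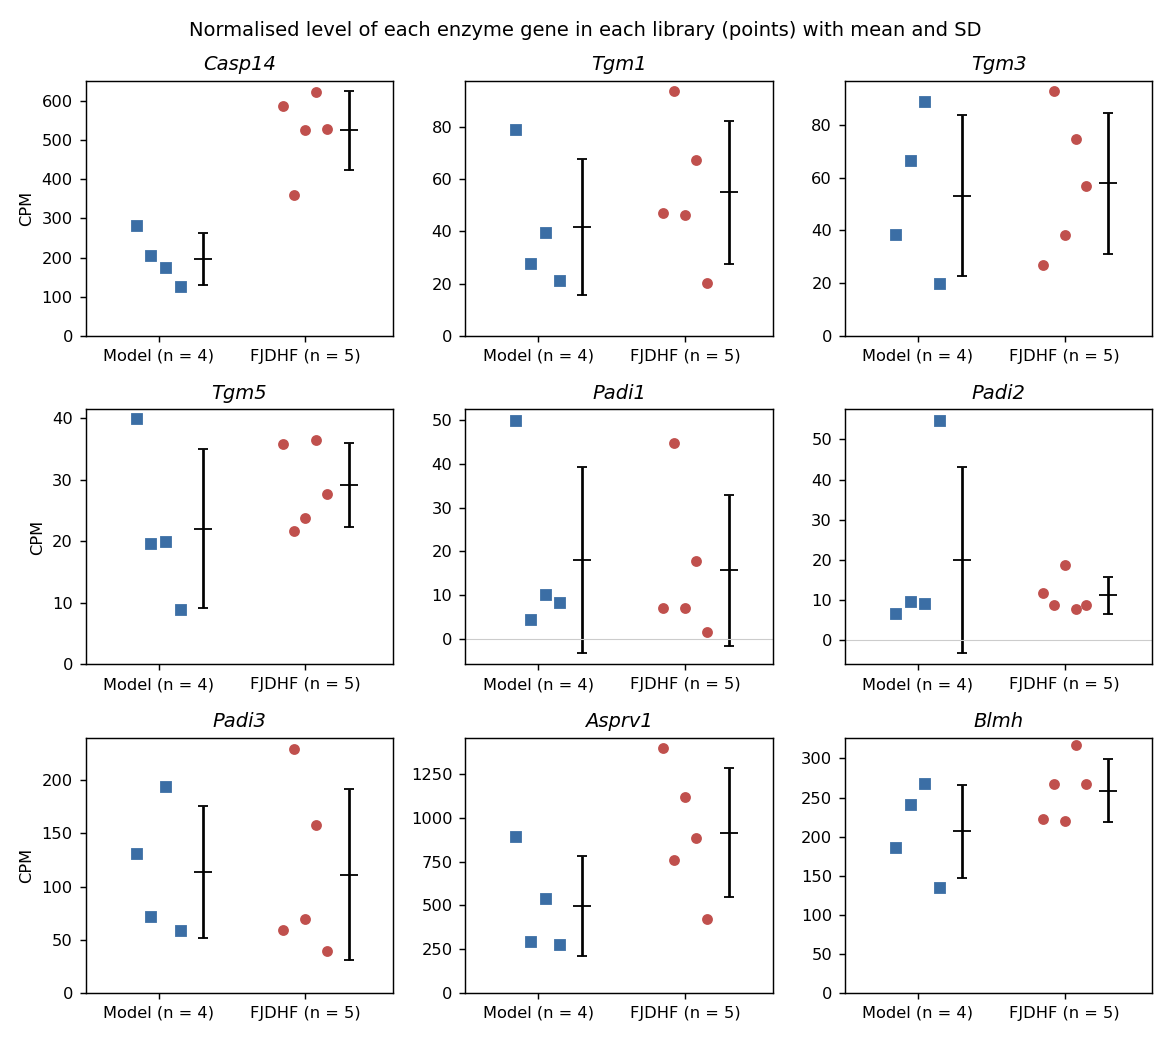
CPM of each gene in each library (squares for Model, circles for FJDHF), with the mean and SD of each group beside the points and 1 vertical scale per gene. The FJDHF points of Casp14 start at 358 CPM, above the highest Model point at 282 CPM, while the groups overlap for the other 8 genes.

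Asprv1, which encodes the retroviral-like protease that trims the linker peptides of filaggrin, had 1399, 761, 1118, 885 and 424 CPM in the FJDHF libraries and 890, 294, 536 and 275 CPM in the Model libraries, in the order given for Casp14. The groups overlapped, because MXL1 exceeded 3 FJDHF libraries and MR5 lay below MXL3_4. The means were 917 ± 368 CPM (SD, n = 5) and 499 ± 286 CPM (n = 4), a log2 fold change of 0.88 ± 0.42 (SE), which ranged from 0.67 to 1.32 when 1 library was left out. Blmh, the enzyme of the last step from filaggrin peptides to free amino acids, varied little, with 223, 267, 219, 317 and 267 CPM against 186, 241, 267.5 and 134 CPM. MR4_5 was highest and MXL_3 lowest, the groups overlapped, and the log2 fold change was 0.32 ± 0.21.

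The transglutaminases that act in the epidermis overlapped between the groups. Tgm1, the membrane-bound enzyme whose loss causes ichthyosis, had 47.3, 93.7, 46.1, 67.5 and 20.1 CPM in FJDHF and 78.9, 27.4, 39.3 and 20.9 CPM in Model libraries. MR3 and MXL1 were the highest of their groups and MR5 the lowest of all, and the log2 fold change was 0.40 ± 0.47. Tgm5, which cross-links proteins in the upper epidermis, had 35.8, 21.7, 23.8, 36.5 and 27.7 CPM against 39.9, 19.5, 19.9 and 8.91 CPM. The highest library and the lowest were both of the Model group, and the log2 fold change was 0.40 ± 0.37. For Tgm3, of the hair follicle and the upper epidermis, the values were 27.1, 93.0, 38.2, 74.7 and 56.9 CPM against 38.3, 66.3, 88.7 and 19.8 CPM. The groups covered nearly the same range, with a log2 fold change of 0.12 ± 0.46 that turned to -0.15 without MXL_3.

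The deiminases were the most uneven of the enzymes across libraries. Padi3, of the inner root sheath, had 59.6, 230, 69.5, 158 and 39.6 CPM in the FJDHF libraries and 131, 71.5, 193 and 58.1 CPM in the Model libraries. Each group held both high and low libraries, and the log2 fold change was -0.03 ± 0.54. Padi1, which citrullinates keratins and filaggrin in the epidermis, had 7.11, 44.8, 6.95, 17.8 and 1.57 CPM against 49.8, 4.36, 10.1 and 8.08 CPM. MR3 and MXL1 stood high in their groups, and leaving out either turned the log2 fold change from -0.21 ± 0.92 to -1.14 without MR3 and to 1.06 without MXL1.

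Padi2, the deiminase known from muscle, brain and secretory tissues, went the other way in 1 library. Its levels were 11.7, 8.82, 18.8, 7.70 and 8.78 CPM in the FJDHF libraries and 6.62, 9.56, 9.15 and 54.6 CPM in the Model libraries. MXL_3 was the highest library by far, and the other 3 Model libraries lay inside or below the FJDHF range. The log2 fold change was -0.84 ± 0.61 with all libraries and 0.40 ± 0.34 without MXL_3. The same library had the highest skeletal muscle score, 10.6, yet over all 9 libraries the relation of Padi2 to that score did not pass the test (Pearson r = 0.64, exact permutation test, p = 0.0619, adjusted over 9 genes p = 0.354; Spearman rho = 0.37, adjusted p = 0.797; r = 0.52 without the 2 libraries farthest from the median score). This relation was looked at after the high library had been seen.

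**Figure D3:**
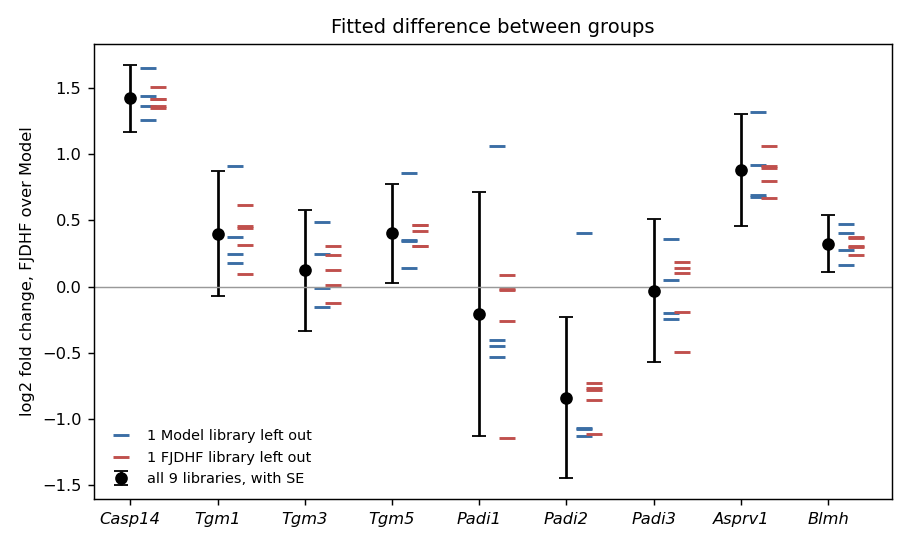
Fitted log2 fold change, FJDHF over Model, of each gene with its SE (black), and the values after leaving out 1 Model (blue) or 1 FJDHF library (red). Casp14 stays between 1.26 and 1.65, whereas Padi1, Padi2, Padi3 and Tgm3 have values on both sides of 0.

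To relate each enzyme to marker genes without using the difference between the groups, its log2(CPM + 0.5) was related to the mean log2(CPM + 0.5) of 12 differentiated keratinocyte markers (Krt1, Krt10, Krtdap, Sbsn and others) and of 8 inner root sheath markers (Krt25, Krt71, Tchh, Gata3 and others), none of which is among the 9 enzymes. Each library's group mean was subtracted, libraries were exchanged within groups in an exact two-sided permutation test, and p was adjusted over the 18 relations. Asprv1 was related to the differentiated keratinocyte markers (r = 0.93, exact permutation, adjusted p = 0.00937). Padi3 was related to the inner root sheath markers (r = 0.97, exact permutation, adjusted p = 0.00937), as was Tgm1 (r = 0.84, adjusted p = 0.0333). Padi1 missed the threshold for the inner root sheath (r = 0.80, exact permutation, adjusted p = 0.0813), and so did Tgm5 (r = 0.83, adjusted p = 0.114) and Casp14 (r = 0.72, adjusted p = 0.170) for the differentiated keratinocytes. The relation of Tgm1 is not shown to be particular to the inner root sheath. As a description from the same libraries, with group means subtracted, its r was 0.87 with hair cortex and cuticle markers, 0.83 with basal and 0.72 with differentiated keratinocyte markers. Padi3 had r = 0.94 and Padi1 r = 0.87 with the hair cortex and cuticle markers. With the basal keratinocyte markers Tgm5 had r = 0.82 and Padi1 r = 0.77, so these are not shown to be particular to 1 score either.

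With the group means left in, the relations also draw on the difference between the groups. For the differentiated keratinocyte score, by exact permutation over all orders of the 9 libraries, those that passed among the enzymes other than Casp14 were Asprv1 (r = 0.96, exact permutation adjusted p = 0.00171; rho = 0.93, adjusted p = 0.00675) and Tgm5 (r = 0.85, adjusted p = 0.00736; rho = 0.90, adjusted p = 0.0122), the latter not once the group means were subtracted. Casp14 had r = 0.82, which is given without a test. The score itself was higher in the FJDHF libraries, at 9.31, 8.69, 8.87, 8.95 and 8.36, than in 3 of the 4 Model libraries, at 9.01, 7.62, 8.01 and 7.44. The value for Casp14 is therefore not separate from the difference by which it was chosen. Without MXL12 and MXL_3, the libraries farthest from the median score, r was 0.88 for Asprv1, 0.74 for Tgm5 and 0.62 for Casp14.

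For the inner root sheath score the relations that passed were Padi3 (r = 0.97, exact permutation adjusted p = 0.000992; rho = 0.97, adjusted p = 0.00298), Padi1 (r = 0.80, adjusted p = 0.0322; rho = 0.75, adjusted p = 0.0934) and Tgm1 (r = 0.79, adjusted p = 0.0460; rho = 0.68, adjusted p = 0.113). Without MR3 and MR5, r was 0.93 for Padi3, 0.58 for Padi1 and 0.58 for Tgm1. Each library was then left out in turn, again with the group means left in. The relations of Asprv1 and Padi3 passed in 9 of 9 settings and that of Tgm5 in 8. Those of Padi1 and Tgm1 passed in 4 and 2. These counts also draw on the difference between the groups, and Tgm5 and Padi1 did not pass once the group means were subtracted. Neither score was related to Blmh or Padi2 in these tests, with r from -0.49 to 0.38. Tgm3, an enzyme of the hair follicle by its known role, had r = 0.66 with the inner root sheath score (exact permutation, adjusted p = 0.132) and r = 0.00 with the differentiated keratinocyte score (adjusted p = 1.00).

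**Figure D4:**
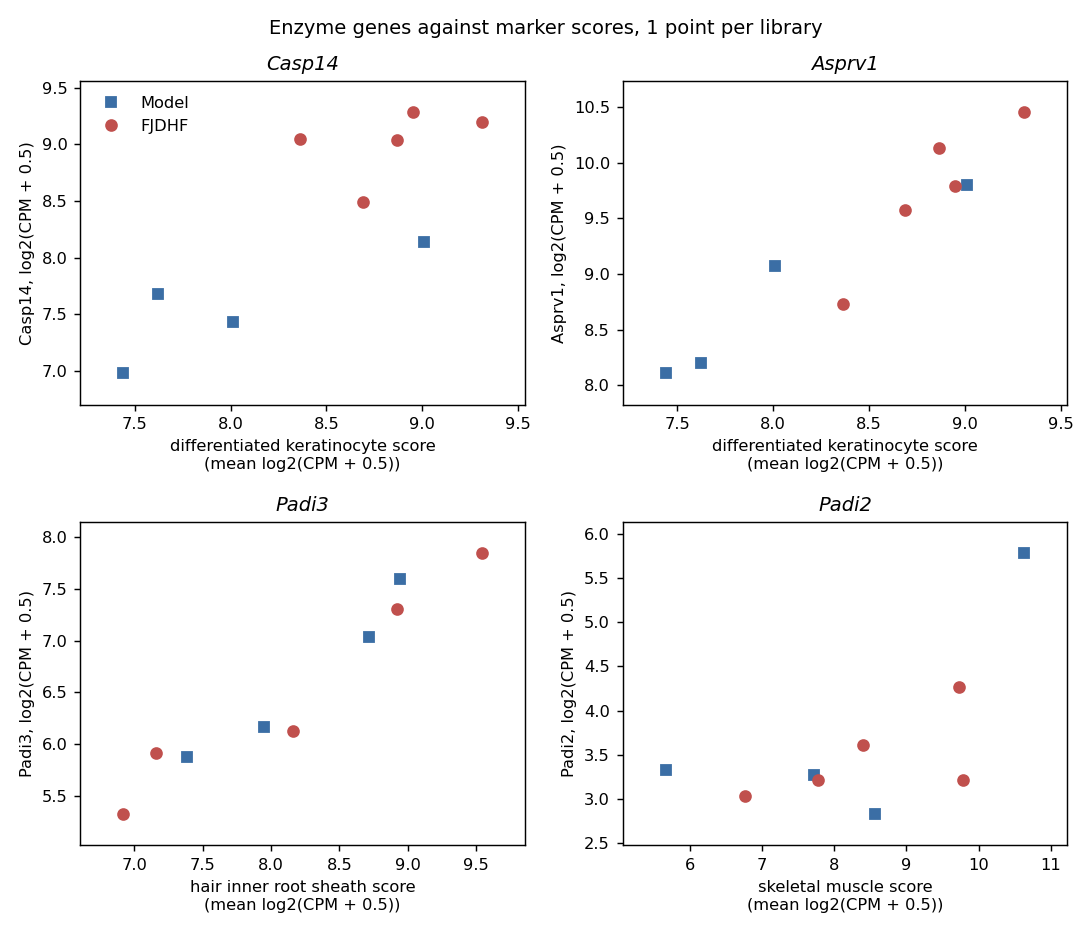
Each panel plots log2(CPM + 0.5) of a gene against a marker score (mean log2(CPM + 0.5) of the markers), 1 point per library, squares for Model and circles for FJDHF. Asprv1 and Padi3 rise with their scores in both groups. The FJDHF points of Casp14 lie above all Model points, including that of like score (MXL1, score 9.01). In the Padi2 panel 1 Model point, MXL_3, stands apart.

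The values of Casp14 and Asprv1 can be set beside the differentiated keratinocyte score library by library. Library MXL1 had a score of 9.01, inside the FJDHF range of 8.36 to 9.31, and its Asprv1 level of 890 CPM was inside the FJDHF range as well. Its Casp14 level of 282 CPM was below the lowest FJDHF library at 358 CPM, as was that of every Model library. Casp14 was chosen for its difference between the groups. Neither this comparison nor its value in the next fit is separate from that choice. With the score as a covariate, in a fit added after these values were seen, the log2 fold change of Casp14 was 1.04 ± 0.27 and that of Asprv1 -0.08 ± 0.27, compared with 1.42 ± 0.25 and 0.88 ± 0.42 without it. Tgm5 moved from 0.40 ± 0.37 to -0.22 ± 0.30 and Blmh from 0.32 ± 0.21 to 0.34 ± 0.30 in the same fit, where 4 of the 9 enzymes were above 0. The score itself tended to be higher in the FJDHF libraries, as given above, and Asprv1 followed it at r = 0.96 with the group means left in. The value of Asprv1 in this fit is therefore not separate from that relation. Neither the difference between these genes nor the part of the differentiated keratinocytes in their values was tested.

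Between the enzymes themselves, the correlation over libraries is given as a description, from the same 9 libraries and with the group means subtracted. Tgm1 and Padi1 (r = 0.95), Casp14 and Tgm5 (r = 0.92) and Tgm3 and Blmh (r = 0.92) were the closest of 36 pairs. Padi3 went with Tgm1 (r = 0.83) and Padi1 (r = 0.80), and Casp14 with neither Padi3 (r = -0.06) nor Padi1 (r = 0.06). Padi2 had a negative r with each of the other 8 enzymes, from -0.29 with Padi1 to -0.82 with Tgm5, and its high value in MXL_3 enters each of these.

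**Figure D5:**
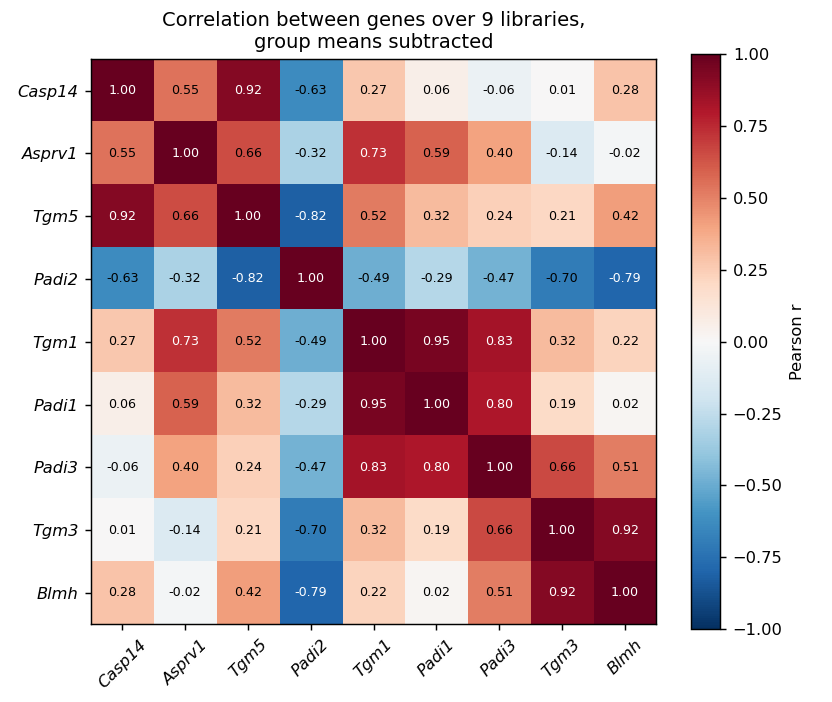
Pearson r between log2(CPM + 0.5) of each pair of the 9 genes over 9 libraries after subtracting group means, red for positive and blue for negative. Casp14, Asprv1 and Tgm5 are related at 0.55 to 0.92, Tgm1, Padi1 and Padi3 at 0.80 to 0.95, and the row of Padi2 is negative.

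Of 10465 tested genes with a mean of at least 10 CPM, the 5 most like Casp14 over the 9 libraries by Pearson r of log2(CPM + 0.5) were Calm4 (0.97), which encodes a skin calmodulin, Them5 (0.96), an acyl-CoA thioesterase gene, Gm11992 (0.96), Tdh (0.95), which encodes L-threonine dehydrogenase, and Rbp2 (0.95), a retinol-binding protein gene. With the group means subtracted r was 0.90 to 0.98 for these 5, which had been ranked without that step. Their group means were 1671 ± 530 against 571 ± 207 CPM for Calm4 and 127 ± 30.2 against 61.6 ± 24.2 CPM for Them5 (SD, n = 5 and 4). For Gm11992, Tdh and Rbp2 the FJDHF means were 41.1, 21.6 and 45.5 CPM and the Model means 20.4, 8.79 and 20.2 CPM. All 5 were thus higher in FJDHF, as a gene must be to resemble Casp14 across these libraries.

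Genes for the proteins on which these enzymes act were described by their counts, without a test. This list and those that follow were chosen with earlier results of these data known, so their counts are no separate evidence of a difference. Of 31 listed genes for substrates and structural proteins of the cornified envelope, 28 were tested, none was called after adjustment, and 23 had a log2 fold change above 0, where 44.1% of all tested genes did, with a median of 0.66 against -0.03 over all tested genes. By the unadjusted rule given above, 7 were higher and 1 lower, where 0.428% and 0.452% of all tested genes were. The largest differences at a mean of at least 10 CPM were those of Rptn, a filaggrin-like repetin (1113 ± 474 against 305 ± 178 CPM, log2 fold change 1.87 ± 0.51), and Krt1, a suprabasal keratin (4787 ± 2280 against 1711 ± 800 CPM, 1.48 ± 0.41). On the other side were the keratin gene Krt77 (30.7 ± 22.7 against 131 ± 99.4 CPM, -2.10 ± 0.78) and Evpl, which encodes envoplakin (24.7 ± 21.0 against 27.0 ± 37.0 CPM, -0.13 ± 0.89). The median stayed above 0 whichever library was left out, from 0.37 without MR1 to 1.31 without MXL1. Counts of the Sprr and Lce genes in this list are uncertain, since these families have near-identical copies. Several genes of the list are also part of the differentiated keratinocyte score.

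Other proteases and inhibitors that act on filaggrin or on the junctions between corneocytes gave 18 of 22 tested genes above 0, beside 44.1% of all tested genes, a median log2 fold change of 0.27 and no gene called after adjustment. The median was 0.11 without MXL_3, 0.12 without MR3, 0.18 without MR4_5, 0.42 without MXL3_4 and 0.67 without MXL1, and 15 to 20 genes were above 0 when 1 library was left out. The kallikrein genes Klk13 (29.2 ± 16.8 against 10.6 ± 8.63 CPM, 1.46 ± 0.58) and Klk8 (61.1 ± 17.5 against 26.8 ± 24.6 CPM, 1.19 ± 0.49) had the largest differences upward at a mean of at least 10 CPM. These were the 2 genes past the unadjusted threshold with a 2-fold difference, where 0.428% of all tested genes were higher by that rule. Furin, a proprotein convertase gene, and Mmp9, a gelatinase gene, had log2 fold changes of -0.19 ± 0.64 and -0.18 ± 0.55. The enzymes that handle the amino acids set free from filaggrin were above 0 in 7 of 7 genes, beside 44.1% of all tested genes. Their median was 0.58, and none was called at either threshold. That median is the value of Uroc1 (0.58 ± 0.95), which had a mean of 0.220 CPM and at most 43 counts in a library. Amdhd1, at a mean of 0.233 CPM, had 0.20 ± 0.80, and Oplah had 0.04 ± 0.47. The median fell to 0.14, with 6 of 7 above 0, without MR1, to 0.34 without MXL12 and to 0.36, with 5 of 7, without MR3, and it was 0.89 without MXL1. Arg1, an arginase gene, had 48.1 ± 34.4 against 24.3 ± 10.4 CPM (0.98 ± 0.49), and Hal, the histidase gene that yields urocanic acid, had 119.7 ± 31.4 against 70.4 ± 65.0 CPM (0.77 ± 0.49).

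Of 10 listed genes for hair substrates of TGM3 and PADI3, 9 were tested, 6 were above 0, beside 44.1% of all tested genes, none was called at either threshold, and the median log2 fold change was 0.13. S100a3, a calcium-binding protein of the hair cuticle, had 0.41 ± 0.62, the inner root sheath keratin gene Krt71 0.18 ± 0.59, Tchh, which encodes trichohyalin, -0.05 ± 0.50 and Tchhl1, a trichohyalin-like gene, -0.21 ± 0.48. The count above 0 depended on single libraries, from 1 of 9 without MR3 and 2 of 9 without MXL_3 to 9 of 9 without MR5, and the median from -0.43 without MR3 to 0.39 without MXL3_4. The 17 relatives of the 9 enzymes outside the set gave 15 tested genes, of which 7 were above 0, beside 44.1% of all tested genes. Their median was -0.05, against -0.03 over all tested genes, and none was called at either threshold. At a mean of at least 10 CPM, the 2 lowest and the 2 highest were Casp4, an inflammatory caspase gene, at -0.45 ± 0.29 and Casp12 at -0.30 ± 0.29, and F13a1 at 0.16 ± 0.37 and Casp6 at 0.11 ± 0.19.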

How the data were processed

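Strand-specific libraries of poly(A) RNA from back skin were read as pairs. The authors deposited raw whole-number counts per gene, and FPKM values that they had corrected for depth and gene length. The submitters' processing notes name HISAT, StringTie, DESeq2 and mm10 without roles, and how strand was set in counting is not given in the sources used here. The FPKM table holds 9 further columns of counts with the same totals, which were not used. The columns MR were taken as FJDHF and MXL as Model, since the column numbers fit those of the groups and MX can abbreviate the Chinese term for a model. The 9 genes and all gene lists were chosen with earlier results of these data known.

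Counts were fitted with edgeR 4.0.16 in R 4.3.3 (filterByExpr, TMM, robust quasi-likelihood test, Benjamini-Hochberg adjustment over all tested genes, no covariate). CPM use TMM library sizes, and a marker score averages log2(CPM + 0.5) over its genes. Genes were called at an adjusted p below 0.05 with at least a 2-fold difference. The p values measure the spread between libraries, and the floor of 3 counts reflects counting error alone, as PCR duplicates are not separate molecules. In all 36 pairs, libraries differed by more than sampling noise (chi-square per degree of freedom of 127 or more). Relations over 9 libraries used all 362880 orders, or 2880 orders within groups, with Python 3.11.15, rather than the resampling first planned.

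Alternatives were DESeq2 1.42.0, its size factors, limma 3.58.1 on log2(FPKM + 1), other filters, marker scores as covariates, a replicate block, a pseudocount of 0.1, FPKM in place of CPM, and leaving out each library. Apart from the 9 enzymes, genes were named by rule, namely the 5 most like Casp14 and, as no listed gene was called, the 2 with the largest rise and the 2 with the largest fall in each list at a mean of at least 10 CPM, with the relatives' levels, of which not all are reported here. Krt10, Krtdap, Sbsn, Krt25 and Gata3 are named as markers only. Defb8, Uroc1, Amdhd1, Oplah and the overlapping genes were named after their values were seen. Gene positions were compared with GENCODE M21. The deposited bounds of 8 of the 9 genes were the same there, and those of Tgm1 differed.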

Additional observations from a re-analysis of the deposited data

Results flagged for a closer look

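The level of Padi2 in the Model library MXL_3 stood apart from the other 3 Model libraries. On the log2(CPM + 0.5) scale its gap to the nearest of them was 0.831 of the whole range of the group, just past Dixon's 95% critical value for a group of that size. It was the only 1 of 40 such comparisons, over the 9 enzymes and the marker scores in each group, to pass, where chance gives about 2. MXL_3 had 54.6 CPM of Padi2 and the other Model libraries 6.62 to 9.56 CPM. The same library had the highest skeletal muscle and dermal fibroblast scores of the 9 and the lowest keratinocyte scores, and the part of these in the Padi2 level was not tested.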

How the results depend on the processing

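The log2 fold change of Casp14 lay between 1.04 and 1.47 under the other settings and between 1.26 and 1.65 when 1 library was left out, and it was above 0 in each. The number of enzymes above 0 was 4 to 7 under other settings and 5 to 8 with 1 library left out. Of the other enzymes, Padi2 without MXL_3 (0.40), and Tgm5 (-0.22), Padi2 (0.50) and Asprv1 (-0.08) with the differentiated keratinocyte score as covariate, moved by more than the SD between libraries. No gene was called after adjustment except by DESeq2, which called 2. The count by the unadjusted rule was 183, and it was 46 with limma on FPKM, 797 without a filter on low counts, 121 with at least 10 counts in every library, 292 with the differentiated keratinocyte covariate, and 138 to 417 with 1 library left out (417 without MXL1 and 298 without MXL_3). The count of relations to marker scores that passed with the group means left in was 6, with that of Casp14 among them. It was 3 with group means subtracted, where Casp14 did not pass, and 2 to 6 with 1 library left out. It was 3 without MR3, MR3_4 or MR4_5 and 2 without MXL_3. Casp14 was chosen for its difference between the groups, so its part in these counts is no evidence of a relation. The others that passed with all libraries were those of Asprv1, Tgm5, Padi3, Padi1 and Tgm1. The causes were not tested.

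The codes 1, 3 and 3_4 occur in both groups. Libraries with the same code had correlations of their deviations from group means of 0.22, 0.12 and -0.22. These were not compared with other pairs of libraries, so whether the codes pair the libraries was not tested. A replicate block over these 6 libraries gave 0 genes called, 170 at the unadjusted threshold, 6 of 9 enzymes above 0 and 1.39 for Casp14. The same libraries without it gave 193 at the unadjusted threshold and 1.34 for Casp14. The SE of Casp14 was 0.25 with the block and 0.35 without it, and that of Tgm1 was 0.58 and 0.50. At these depths the spread between the 4 and 5 libraries, not counting error, sets the precision.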
